A study of Mus musculus with 21 samples.

Results

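The 39 genes described here carry glucose and lactate across membranes, break glucose down to pyruvate and lactate, and run the tricarboxylic acid (TCA) cycle. They were picked by gene symbol as members of these pathways, and were grouped into 5 transporters of glucose and lactate, 17 genes of glycolysis and lactate formation, and 17 genes of pyruvate entry and the TCA cycle. All 39 were found among the 21654 genes of the deposited count table. All 39 averaged at least 50 reads per library, so all were among the 12768 genes tested for a difference between diets.

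The reads came from RNA sequencing of punches of the ventral hypothalamus (VH) of male C57BL/6J mice, 12 to 14 weeks old when acquired. RC NoDS mice (5 libraries, replicates 1, 2, 3, 5 and 6) ate regular chow (RC) without a diet switch (DS), and HFD NoDS mice (5 libraries, replicates 19, 20, 21, 23 and 24) ate a high-fat diet (HFD) without one. RC → HFD mice (6 libraries, replicates 7 to 12) were moved from chow to the high-fat diet, and HFD → RC mice (5 libraries, replicates 13 to 17) were moved the other way, for a week before collection. According to the paper, all mice first ate their starting diet for several weeks, so they were older at collection than when acquired. All 4 groups were kept awake for 3 h with unfamiliar objects and were killed at zeitgeber time 6, the middle of the light phase, so no group shows these genes in mice left to sleep.

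Each library held RNA pooled from the punches of 2 mice of the same group, so the spread between replicates is a spread between pools and not between single mice. A punch mixes neurons, glia, vessel cells and ependymal cells, so fewer cells of a type and less RNA per cell cannot be told apart. The authors had resampled the libraries to near-equal depth, and a library's total ran from 16380781 reads for HFD NoDS replicate 20 up to 16390598 for HFD → RC replicate 16. Below, values listed for a group follow the order of its replicate numbers, and for RC → HFD the lowest, median and highest of its 6 libraries are given.

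The tissue label was checked against 9 genes of VH neurons, all of which had reads in all 21 libraries. Pomc, which encodes the precursor of melanocortin peptides, ranged from 5012 to 11836 reads, and Agrp, which encodes a peptide that promotes feeding, ranged from 426 to 1476 reads. Lateral hypothalamus genes were present as well: Pmch ranged from 273 to 2234 reads and Hcrt from 28 to 1051 reads. Hcrt was called higher in HFD NoDS than in RC NoDS (edgeR, log2 fold change 2.71, adjusted p 0.0513), and whether the punches of the groups held different shares of lateral hypothalamus was not tested. The authors had screened punches on Agrp, Pomc and Hcrt, so these genes are not an independent check of the dissection. The summed reads of 3 pituitary genes ranged from 1 to 2655, and Gh, Prl and Cga each had 0 reads in some libraries.

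The groups also differed in library complexity, measured as the percentage of 3116 genes averaging 5 to 50 reads that had 0 reads in a library. The mean was 3.22% in RC NoDS, 11.9% in RC → HFD, 16.5% in HFD → RC and 16.3% in HFD NoDS. RC NoDS lay below HFD NoDS (exact permutation test, two-sided, p 0.00794, adjusted p 0.0476 over 6 pairs of groups) and below HFD → RC (exact permutation test, two-sided, p 0.0159, adjusted p 0.0476). RC NoDS and RC → HFD did not pass the same test (exact p 0.0887, adjusted p 0.177). With any single RC NoDS library left out, the adjusted exact p of the comparisons with HFD NoDS and HFD → RC lay between 0.0714 and 0.119. The differences stayed about as large. They ranged from 12.5 to 14.1 percentage points for HFD NoDS and from 12.7 to 14.3 for HFD → RC, against 13.1 and 13.3 with all libraries. The highest values were 22.4% in RC → HFD replicate 12, 31.9% in HFD → RC replicate 17 and 32.9% in HFD NoDS replicate 20. These values move with the diet groups, and their part in the differences given below was not tested beyond the fits with complexity as a covariate and with those 3 libraries left out.

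Glycolysis splits glucose into pyruvate in the cytosol, and lactate dehydrogenase converts pyruvate and lactate into each other. Pyruvate that enters mitochondria is turned into acetyl-CoA by pyruvate dehydrogenase and feeds the TCA cycle, whose reduced cofactors drive most of the ATP synthesis of neurons. In the hypothalamus, glucose and lactate are also signals: specialised neurons and the tanycytes that line the third ventricle change their activity with them.

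Levels between genes were compared as deposited reads per kilobase of exon, averaged over the 21 libraries. The length joined all annotated exons of a gene, which can exceed its transcripts, so levels and isoform shares depend on the annotation too. On that scale the median level was 1931 for glycolysis members, 747 for TCA cycle members and 110 for transporters, against 146 for all 12768 genes tested. Among the 10% of tested genes with the highest level on that scale were 14 of the 17 glycolysis members, 8 of the 17 TCA cycle members and 1 of the 5 transporters. Pkm2, the pyruvate kinase gene, had the highest level of the 39 at 10632 reads per kilobase. It was followed by the aldolase gene Aldoa at 9919 and by Gapdh, which encodes glyceraldehyde-3-phosphate dehydrogenase, at 6312 reads per kilobase. The lowest level was that of Slc16a3, a lactate exporter gene, at 12.3 reads per kilobase. Several of these genes, Gapdh among them, have processed pseudogenes in the mouse genome, and how reads shared with those were assigned is not known from the count table.

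The median member varied less within a group than the median gene tested, in a comparison not matched for read level. The median within-group standard deviation (SD) of log2 normalized counts was 0.114 over the 39 members, against 0.217 over all 12768 genes tested. By list it was 0.0964 for glycolysis, 0.123 for the TCA cycle and 0.211 for transport. Ogdh, a subunit gene of the 2-oxoglutarate dehydrogenase complex, varied least, with an SD of 0.0664. Slc16a7, with few reads, varied most, with an SD of 1.07. Slc16a3 and Hk2, also low in reads, had SDs of 0.459 and 0.438. The neuron markers used below had a median SD of 0.141, so a low spread was not particular to the members.

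The share of all reads that fell on each list spanned a narrow range over the 21 libraries. Glycolysis members took 0.849% of the reads in RC NoDS replicate 2, the lowest, and 1.04% in HFD NoDS replicate 20, the highest. The mean glycolysis share was 0.902% ± 0.0334 (SD, n = 5) in RC NoDS, 0.946% ± 0.0386 (SD, n = 6) in RC → HFD, 0.944% ± 0.0508 (SD, n = 5) in HFD → RC and 0.960% ± 0.0531 (SD, n = 5) in HFD NoDS. RC NoDS thus had the lowest mean of the 4 groups, and its 5 libraries overlapped the libraries of each other group. TCA cycle members took between 0.308% and 0.350% of the reads of a library, with group means of 0.328%, 0.324%, 0.332% and 0.321% in the same order. Transporters took between 0.0271% and 0.0345%.

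**Figure D1:**
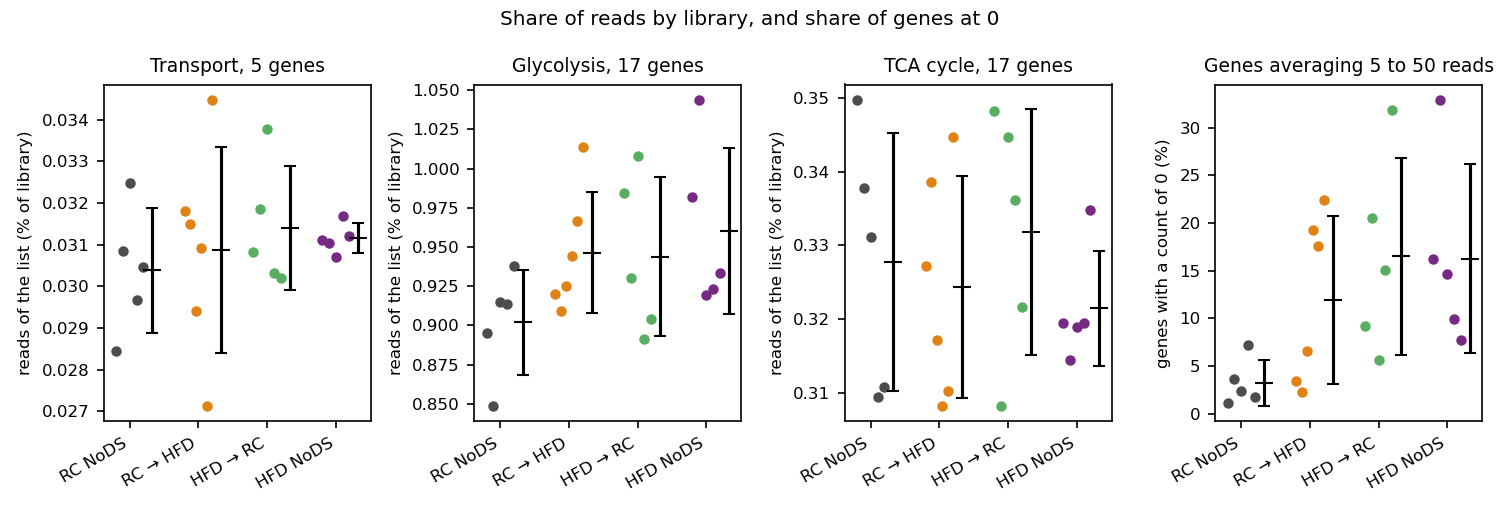
Share of all deposited reads (percent) that fell on the transport, glycolysis and TCA cycle members, and percentage of genes averaging 5 to 50 reads that had 0 reads, by diet group. Points are libraries, and lines and bars are the group mean and SD; the mean glycolysis share was 0.902% in RC NoDS and 0.960% in HFD NoDS.

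In the fit of all 12768 genes with edgeR, no member was called at an adjusted p under 0.15 in any of 9 comparisons. The first asked what a long-term high-fat diet does without a switch (HFD NoDS minus RC NoDS). It gave 0 of 39 members called, against 0.0783% of all genes tested (10 genes). At an unadjusted p under 0.05 it had 7 members higher and 0 lower in HFD NoDS, against 3.84% of all genes higher and 3.57% lower. DESeq2 had 9 members and limma 6 at an unadjusted p under 0.05 there, against 7.86% and 7.69% of all genes. Both called 0 members, against 17 and 10 of all genes.

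The second comparison asked whether the 2 directions of switching differ (HFD → RC minus RC → HFD). It gave 0 members called, against 0.00783% of all genes (1 gene), and 0 at an unadjusted p under 0.05, against 3.16% of all genes higher and 2.19% lower. DESeq2 and limma also had 0 members at an unadjusted p under 0.05 there, against 5.74% and 5.20% of all genes. Both called 0 members, against 5 and 1 of all genes.

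The next comparisons asked what the switch adds to each starting diet. For RC → HFD minus RC NoDS, edgeR called 0 members, against 0.0392% of all genes (5 genes), and had 1 member higher and 0 lower at an unadjusted p under 0.05, against 3.84% and 2.67% of all genes. DESeq2 called 1 member there, Eno2, among 96 of 12768 genes, with 1 member at an unadjusted p under 0.05 against 6.71% of all genes. With limma 0 were called, against 5 of all genes, and 3 were at that level, against 6.72%. For HFD → RC minus HFD NoDS, edgeR called 0 members, against 0.0705% of all genes (9 genes), and had 1 member higher and 1 lower at an unadjusted p under 0.05, against 3.78% and 4.15% of all genes. DESeq2 and limma each called 0 there, against 44 and 12 of all genes. Each had 2 at an unadjusted p under 0.05, against 8.46% and 8.25% of all genes.

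Groups with a different starting diet and the same final diet were compared as well. For HFD → RC minus RC NoDS, edgeR called 0 members, against 0.282% of all genes (36 genes), and had 5 higher and 0 lower at an unadjusted p under 0.05, against 5.16% and 2.94% of all genes. DESeq2 called 0 members there, against 147 of all genes, and had 6 at an unadjusted p under 0.05, against 8.45% of all genes. With limma 0 were called, against 7 of all genes, and 5 were at that level, against 8.33%. For HFD NoDS minus RC → HFD, edgeR called 0, against 0.0157% of all genes (2 genes), and had 1 higher and 0 lower at an unadjusted p under 0.05, against 4.3% and 3.19% of all genes. DESeq2 and limma each called 0 there, against 32 and 2 of all genes. Each had 1 at an unadjusted p under 0.05, against 8.02% and 7.61% of all genes.

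The remaining comparisons joined all 4 groups. The effect of the diet eaten at the end was the mean of HFD NoDS and RC → HFD minus the mean of RC NoDS and HFD → RC. edgeR called 0 members for it, against 0.047% of all genes (6 genes), and had 3 higher and 0 lower at an unadjusted p under 0.05, against 2.94% and 2.27% of all genes. DESeq2 and limma called 0, against 12 and 8 of all genes, and had 3 at that level, against 5.55% and 5.50% of all genes. The interaction asked whether eating the high-fat diet at the end has another effect after a start on the high-fat diet (HFD NoDS minus HFD → RC) than after a start on chow (RC → HFD minus RC NoDS), the first minus the second. edgeR called 0 members for it, against 0.0313% of all genes (4 genes), and had 0 higher and 1 lower at an unadjusted p under 0.05, against 4.02% and 4.82% of all genes. DESeq2 and limma called 0, against 116 and 15 of all genes, and had 1 at that level, against 9.34% and 9.18% of all genes. For any difference among the 4 groups, edgeR called 0 members, against 0.149% of all genes (19 genes), and had 2 at an unadjusted p under 0.05, against 7.97% of all genes. DESeq2 called 0 there, against 133 of all genes, with 4 at that level, against 9.34% of all genes. With limma 0 were called, against 13 of all genes, and 3 were at that level, against 8.15%.

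**Figure D2:**
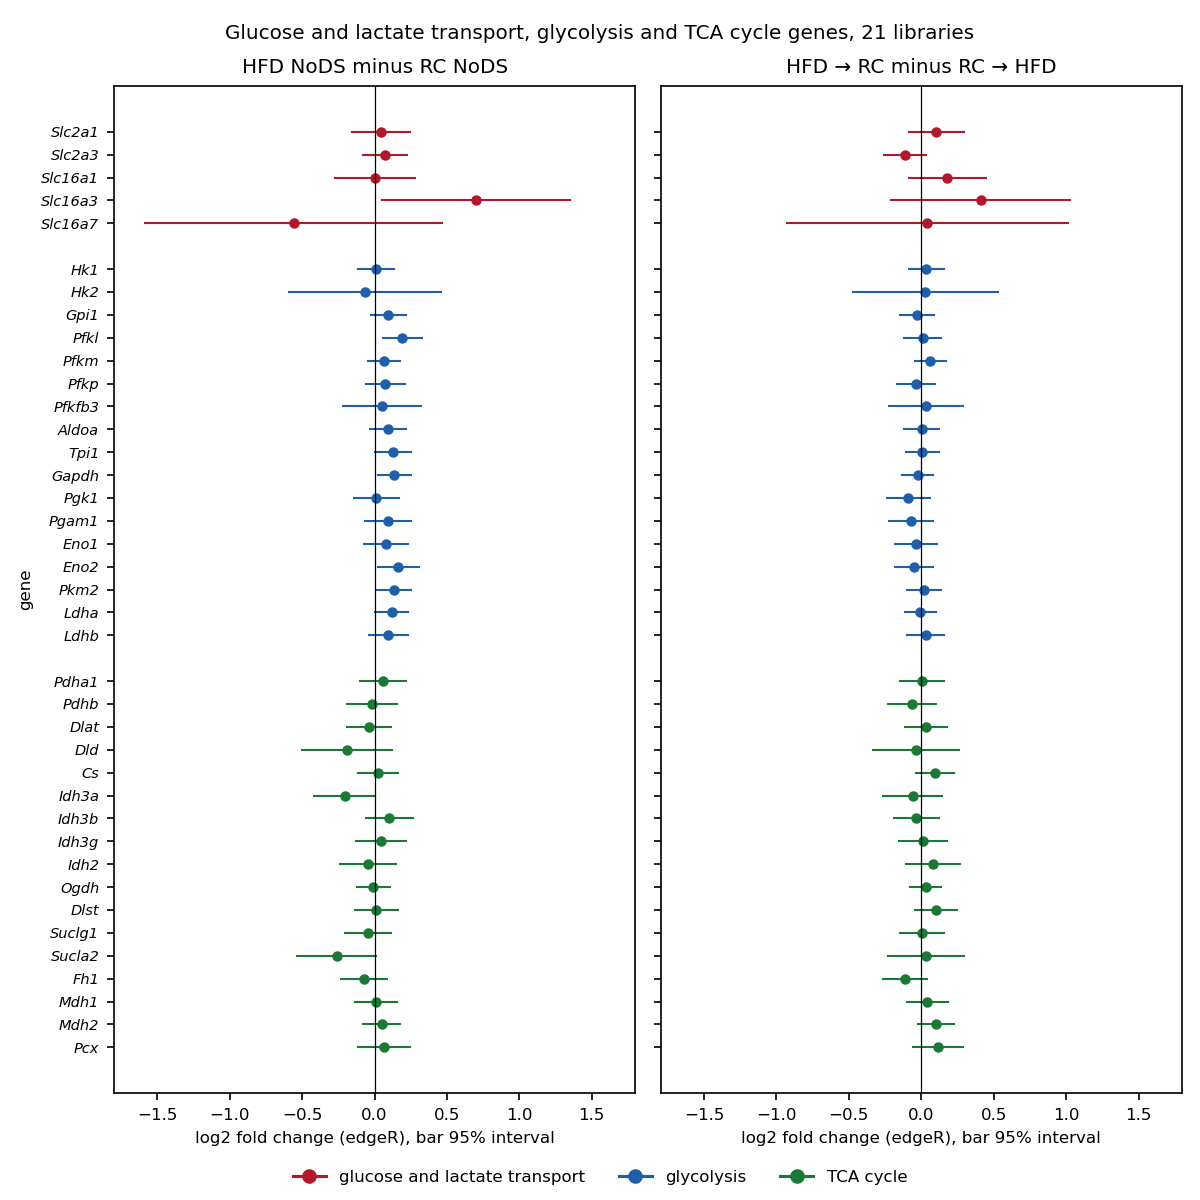
Log2 fold change and 95% interval (edgeR) of the 39 members for HFD NoDS minus RC NoDS and for HFD → RC minus RC → HFD, coloured by list. In the comparison without a switch 16 of 17 glycolysis members lay above 0, and in the comparison of switched groups 9 of 17 did.

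By list, the fold changes against RC NoDS leaned upward for glycolysis. In HFD NoDS minus RC NoDS, 16 of 17 glycolysis members had a higher estimate, with a median log2 fold change of 0.09. That median ranged from 0.05 to 0.13 with each library left out. Members of a list rise and fall together between libraries, so the 17 estimates are not independent results. Within groups, a library's median over the glycolysis members had an SD of 0.0722 on the log2 scale (0.0646 for the TCA cycle, 0.0955 for transport). In the same comparison 8 of 17 TCA cycle members were higher (median −0.01) and 3 of 5 transporters (median 0.05, and 0.03 to 0.09 with each library left out). Over all 12768 genes tested 6587 were higher, which is 51.6%, with a median of 0.01. For this comparison the TCA cycle median turned to 0.01 with complexity as a covariate, and ranged from −0.02 to 0.01 with each library left out, above 0 without RC NoDS replicate 1, 2 or 3 or HFD NoDS replicate 23, and the glycolysis median stayed above 0 in every fit tried.

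RC → HFD minus RC NoDS gave 15 of 17 glycolysis members higher (median 0.09), 10 of 17 TCA cycle members (median 0.02) and 3 of 5 transporters (median 0.06), with a median of −0.00 over all genes. The TCA cycle median there turned to −0.01 without TMM factors and to −0.02 with the 3 libraries of lowest complexity left out. With each library left out it ranged from −0.01 (without RC → HFD replicate 12) to 0.04, with 8 to 14 members higher, and the transport median ranged from −0.0017 (without RC NoDS replicate 1) to 0.11. HFD → RC minus RC NoDS gave 14 of 17 glycolysis members higher (median 0.08), 11 of 17 TCA cycle members (median 0.03) and 3 of 5 transporters (median 0.04), with a median of −0.00 over all genes. With each library left out the TCA cycle median there ranged from 0.01 to 0.06. The transport median ranged from −0.0071 (without RC NoDS replicate 6) to 0.18 (without HFD → RC replicate 17), and was 0.15 with complexity as a covariate and 0.18 with the 3 libraries of lowest complexity left out. The glycolysis median ranged from 0.06 to 0.11 for RC → HFD minus RC NoDS with each library left out. For HFD → RC minus RC NoDS it ranged from 0.05 to 0.11. The 3 comparisons with RC NoDS share its 5 libraries, so they are not independent of each other.

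Comparisons without RC NoDS gave other counts. In HFD → RC minus HFD NoDS, 5 of 17 glycolysis members were higher (median −0.03, which turned to 0.04 with the 3 libraries of lowest complexity left out) and 13 of 17 TCA cycle members (median 0.07) and 3 of 5 transporters (median 0.04) were higher, with 0.00 over all genes. The transport median there ranged from 0.0058 to 0.17 with each library left out, and was 0.19 with those 3 libraries left out. With each library left out the glycolysis median there ranged from −0.06 to 0.02 and the TCA cycle median from 0.04 to 0.07. In HFD → RC minus RC → HFD, 9 of 17 glycolysis members were higher (median 0.00, and −0.03 with complexity as a covariate), 12 of 17 TCA cycle members (median 0.03) and 4 of 5 transporters (median 0.10), with 0.00 over all genes. The TCA cycle median there ranged from 0.0024 to 0.038 with each library left out, and the transport median from 0.067 to 0.21. In HFD NoDS minus RC → HFD, 10 of 17 glycolysis members were higher (median 0.00), 7 of 17 TCA cycle members (median −0.02) and 2 of 5 transporters (median −0.01), and each of these 3 medians changed sign in at least 1 other fit. These counts rested on single libraries. With each library left out in turn, the number of glycolysis members with a higher estimate ranged from 3 to 10 for HFD → RC minus HFD NoDS, from 4 to 11 for HFD → RC minus RC → HFD and from 3 to 14 for HFD NoDS minus RC → HFD. In HFD → RC minus HFD NoDS it was 10 without HFD NoDS replicate 20, 8 without HFD → RC replicate 16, and 3 without any 1 of 8 others (RC NoDS replicates 5 and 6, RC → HFD replicates 7, 11 and 12, HFD → RC replicates 13 and 15 and HFD NoDS replicate 24). In HFD → RC minus RC → HFD it was 4 without HFD → RC replicate 13 or 15. In HFD NoDS minus RC → HFD it was 3 without HFD NoDS replicate 20 and 6 without RC → HFD replicate 8, and the number of TCA cycle members there, which ranged from 3 to 9, was 3 without RC → HFD replicate 10.

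The transporters come first in the pathway. Slc2a1 encodes GLUT1, the glucose carrier of the blood-brain barrier and of glia, and Slc2a3 encodes GLUT3, the main glucose carrier of neurons. Slc2a1 (ENSMUSG00000028645, chromosome 4, mouse genome build NCBIM37) had 1872, 1980, 2447, 2338 and 2382 reads in RC NoDS and 2272, 2524, 2278, 2134 and 2019 in HFD NoDS. It ranged from 1770 to 2645 reads in RC → HFD with a median of 2260 (2259.5), and had 2200, 2655, 2673, 2263 and 2306 in HFD → RC. All groups overlapped, and the lowest libraries were in RC → HFD and RC NoDS. HFD NoDS minus RC NoDS gave a log2 fold change of 0.05 (95% interval −0.15 to 0.24) in the edgeR fit that all fold changes here come from unless another tool is named.

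Slc2a3 (ENSMUSG00000003153, chromosome 6) had 2111, 2317, 2292, 2004 and 2083 reads in RC NoDS and 2176, 1991, 2185, 2360 and 2502 in HFD NoDS. It ranged from 2001 to 2524 reads in RC → HFD with a median of 2273, and had 2211, 1970, 2166, 2085 and 1975 in HFD → RC. The groups eating the high-fat diet at the end held the highest libraries, and every group overlapped every other. It had a small p among the members for HFD → RC minus RC → HFD, though none was under 0.05 there (log2 fold change −0.11, edgeR p 0.128, adjusted p 1). Per kilobase of exon, Slc2a1 made up 72.4% ± 2.67 (SD, n = 21) of the sum of the pair. Before division by exon length the means over the 21 libraries were close, 2278 reads for Slc2a1 and 2186 for Slc2a3. Annotated genes overlap Slc2a1 on the opposite strand and Slc2a3 on the same strand. Whether the counting used the strand is not stated, although the library kit keeps it, so reads of such neighbours may be in a member's count.

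The monocarboxylate transporters carry lactate and pyruvate together with protons. Slc16a1 encodes MCT1, found on endothelial cells and glia, and Slc16a7 encodes MCT2, the high-affinity carrier of neurons. Slc16a1 (ENSMUSG00000032902, chromosome 3) had 547, 639, 466, 427 and 441 reads in RC NoDS and 528, 426, 454, 599 and 480 in HFD NoDS. It ranged from 337 to 541 reads in RC → HFD with a median of 451.5, and had 470, 450, 587, 475 and 559 in HFD → RC. No group stood apart, and the log2 fold change of HFD NoDS minus RC NoDS was −0.00 (95% interval −0.28 to 0.28).

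Slc16a7 (ENSMUSG00000020102, chromosome 10) had 67, 81, 57, 66 and 29 reads in RC NoDS and 75, 15, 36, 53 and 22 in HFD NoDS. It ranged from 4 to 105 reads in RC → HFD with a median of 59, and had 92, 79, 48, 52 and 21 in HFD → RC. The 4 reads were in RC → HFD replicate 12, and low libraries occurred in all 4 groups. With so few reads the log2 fold change of HFD NoDS minus RC NoDS, −0.56, had a 95% interval of −1.58 to 0.47, so a lower level could not be told from no difference at this depth and spread. Slc16a1 made up 89.0% ± 5.18 (SD, n = 21) of the reads per kilobase of the pair.

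Slc16a3 encodes MCT4, a carrier that exports lactate from glycolytic cells. It lies outside the rule by which members were named and was picked out after its values were seen. Slc16a3 (ENSMUSG00000025161, chromosome 11) had 65, 38, 62, 25 and 57 reads in RC NoDS and 48, 130, 78, 47 and 92 in HFD NoDS. It ranged from 42 to 73 reads in RC → HFD with a median of 59.5, and had 77, 65, 61, 95 and 87 in HFD → RC. In HFD NoDS 3 of 5 libraries lay above all RC NoDS libraries, and the highest, replicate 20, is also the library with the most genes at 0. HFD NoDS minus RC NoDS gave 0.70 on the log2 scale (95% interval 0.05 to 1.35, edgeR p 0.0361, adjusted p 0.657). It was 0.66 for HFD → RC minus RC NoDS (95% interval 0.01 to 1.31, edgeR p 0.0457, adjusted p 0.606). Neither passed. The opposite strand of Slc16a3 carries Csnk1d.

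Hexokinase traps glucose in the cell by phosphorylating it, with Hk1 as the general brain form and Hk2 as a form found in insulin-sensitive tissue. Hk1 (ENSMUSG00000037012, chromosome 10) had 6459, 6712, 6725, 7647 and 7018 reads in RC NoDS and 6868, 7259, 6847, 6643 and 6782 in HFD NoDS. It ranged from 6270 to 7331 reads in RC → HFD with a median of 6873, and had 7757, 6781, 6800, 6877 and 6888 in HFD → RC. The groups overlapped throughout, and HFD → RC replicate 13 was the highest library. HFD NoDS minus RC NoDS gave Hk1 a log2 fold change of 0.01 (95% interval −0.11 to 0.14). Hk2 (ENSMUSG00000000628, chromosome 6) had between 100 and 300 reads in the 21 libraries, and per kilobase of exon it made up 3.81% ± 1.05 (SD, n = 21) of the hexokinase pair. Its log2 fold change in the same comparison was −0.06 (95% interval −0.59 to 0.46). Each of these genes has an annotated gene on its opposite strand.

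Phosphofructokinase commits the sugar to glycolysis, and Pfkl, Pfkm and Pfkp encode its liver, muscle and platelet forms, which mix in the same tetramers. Pfkl (ENSMUSG00000020277, chromosome 10) had 3377, 3035, 3393, 3591 and 3455 reads in RC NoDS and 3853, 3965, 3680, 3579 and 3942 in HFD NoDS. It ranged from 3411 to 3790 reads in RC → HFD with a median of 3631, and had 3816, 3302, 3853, 3332 and 3826 in HFD → RC. In HFD NoDS 4 of 5 libraries lay above all RC NoDS libraries, while replicate 23 lay just under the highest RC NoDS library, and HFD → RC was split into 3 high and 2 low libraries. Pfkl had the smallest p of the members for HFD NoDS minus RC NoDS, where its log2 fold change was 0.19 (95% interval 0.06 to 0.32, or 14.3% more reads, edgeR p 0.00573), and did not pass (adjusted p 0.640). Its log2 fold change was 0.12 for RC → HFD minus RC NoDS (edgeR p 0.0608) and 0.13 for HFD → RC minus RC NoDS (edgeR p 0.0535).

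Pfkm (ENSMUSG00000033065, chromosome 15) had 8197, 8240, 8894, 8576 and 8819 reads in RC NoDS and 8897, 9294, 8779, 8513 and 8576 in HFD NoDS. It ranged from 8287 to 9318 reads in RC → HFD with a median of 8722, and had 9167, 9510, 9353, 8827 and 8940 in HFD → RC. In HFD → RC 4 of 5 libraries lay above all RC NoDS libraries, and the other groups were mixed. Pfkm had the smallest p of the members for HFD → RC minus RC NoDS, 9.05% more reads (log2 95% interval 0.02 to 0.23, edgeR p 0.0272), and did not pass (adjusted p 0.543). Pfkp (ENSMUSG00000021196, chromosome 13) was lowest in HFD → RC replicate 17, with 3499 reads, and highest in HFD NoDS replicate 20, with 4412, and all groups overlapped. Its log2 fold change of HFD NoDS minus RC NoDS was 0.08 (95% interval −0.06 to 0.21). Per kilobase of exon, Pfkm made up 69.8% of the reads of the 3 forms, Pfkl 19.8% and Pfkp 10.4%. Before division by exon length Pfkp had more reads than Pfkl, with means of 4048 and 3600 over the 21 libraries. The Pfkl share was 19.2% ± 0.867 (SD, n = 5) in RC NoDS and 20.7% ± 0.581 (SD, n = 5) in HFD NoDS. Senp1 lies opposite Pfkm and Pitrm1 opposite Pfkp, and no annotated gene overlaps Pfkl.

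Triose phosphate isomerase, encoded by Tpi1, converts the products of aldolase into each other so that all of the sugar can go on to pyruvate. Tpi1 (ENSMUSG00000023456, chromosome 6) had 10257, 9238, 10113, 9553 and 10598 reads in RC NoDS and 11205, 11306, 10268, 10380 and 10502 in HFD NoDS. It ranged from 10021 to 11820 reads in RC → HFD with a median of 10351, and had 10977, 9932, 11506, 10203 and 10677 in HFD → RC. All 5 HFD NoDS libraries lay above the RC NoDS median, and 2 of them lay above every RC NoDS library. For HFD NoDS minus RC NoDS the log2 fold change was 0.13 (95% interval 0.01 to 0.25, edgeR p 0.0409, adjusted p 0.657). It was 0.12 for RC → HFD minus RC NoDS (edgeR p 0.0524, adjusted p 0.773) and 0.12 for HFD → RC minus RC NoDS (edgeR p 0.0466, adjusted p 0.608).

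Gapdh oxidises glyceraldehyde 3-phosphate and makes the NADH that lactate formation uses. Gapdh (ENSMUSG00000057666, chromosome 6) had 14195, 12791, 14127, 12860 and 14065 reads in RC NoDS and 14461, 15918, 13977, 14521 and 14843 in HFD NoDS. It ranged from 13816 to 15267 reads in RC → HFD with a median of 14226 (14225.5), and had 14795, 13843, 15224, 13175 and 13591 in HFD → RC. In HFD NoDS 4 of 5 libraries lay above all RC NoDS libraries, and RC NoDS replicates 2 and 5 were the lowest of the study. HFD NoDS minus RC NoDS came to 9.78% more reads (log2 95% interval 0.02 to 0.25, edgeR p 0.0220, adjusted p 0.657).

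Enolase makes phosphoenolpyruvate, with Eno1 as the general form and Eno2 as the form typical of neurons. Eno2 (ENSMUSG00000004267, chromosome 6) had 15840, 15492, 17561, 17143 and 17589 reads in RC NoDS and 19368, 20833, 18430, 16465 and 17417 in HFD NoDS. It ranged from 17556 to 20318 reads in RC → HFD with a median of 18626, and had 18356, 17735, 20330, 17259 and 16641 in HFD → RC. In RC → HFD 5 of 6 libraries lay above all RC NoDS libraries and all 6 above the RC NoDS median, and in HFD NoDS replicates 23 and 24 lay among the RC NoDS libraries. Eno2 had the smallest p of the members for RC → HFD minus RC NoDS, with a log2 fold change of 0.19 (95% interval 0.05 to 0.32, or 13.8% more reads, edgeR p 0.00779), and did not pass (adjusted p 0.673). DESeq2 called Eno2 there at an adjusted p of 0.109 with a log2 fold change of 0.18, in a fit that called 96 genes where edgeR called 5. For HFD NoDS minus RC NoDS Eno2 had 12.1% more reads (log2 95% interval 0.03 to 0.30, edgeR p 0.0219, adjusted p 0.657).

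Eno1 (ENSMUSG00000063524, chromosome 4) was lowest in HFD → RC replicate 16, with 6081 reads, and highest in an RC → HFD library, with 8018, and all groups overlapped. Its log2 fold change of HFD NoDS minus RC NoDS was 0.08 (95% interval −0.07 to 0.23). Eno2 made up 74.5% ± 1.53 (SD, n = 21) of the reads per kilobase of the pair. That share was 73.5% ± 1.252 (SD, n = 5) in RC NoDS and 75.0% ± 1.37 (SD, n = 6) in RC → HFD, with overlapping libraries.

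Pkm2 closes glycolysis by forming pyruvate, and the count does not separate the splice forms of the gene. It lies outside the rule by which members were named and was picked out after its values were seen. Pkm2 (ENSMUSG00000032294, chromosome 9) had 23436, 22304, 24727, 25064 and 25842 reads in RC NoDS and 27105, 28861, 25219, 24473 and 25588 in HFD NoDS. It ranged from 24493 to 28280 reads in RC → HFD with a median of 24865, and had 26684, 25154, 27670, 24030 and 25114 in HFD → RC. HFD NoDS replicates 19 and 20 were high and its other 3 libraries lay within the range of RC NoDS. Between the unswitched groups (HFD NoDS minus RC NoDS) the log2 fold change was 0.13 (95% interval 0.01 to 0.25, edgeR p 0.0357, adjusted p 0.657).

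Lactate dehydrogenase is a tetramer of A subunits, from Ldha, and B subunits, from Ldhb, and forms rich in A are known for making lactate. Ldha (ENSMUSG00000063229, chromosome 7) had 6053, 5581, 5557, 5704 and 5779 reads in RC NoDS and 6275, 6037, 5516, 6494 and 6405 in HFD NoDS. It ranged from 5256 to 5935 reads in RC → HFD with a median of 5595 (5594.5), and had 5555, 5915, 5524, 5466 and 5450 in HFD → RC. In HFD NoDS 4 of 5 libraries lay above every library of RC → HFD and of HFD → RC, and replicate 21 lay among the low ones.

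Ldha was highest in HFD NoDS and had the smallest p of the members in both comparisons of that group with a switched one. HFD → RC minus HFD NoDS gave −0.13 on the log2 scale (95% interval −0.25 to −0.02, edgeR p 0.0240, adjusted p 0.556). It was 0.13 for HFD NoDS minus RC → HFD (95% interval 0.02 to 0.23, edgeR p 0.0240, adjusted p 0.605) and 0.12 for HFD NoDS minus RC NoDS (95% interval 0.00 to 0.23, edgeR p 0.0415, adjusted p 0.657). These comparisons share the 5 HFD NoDS libraries, and none passed.

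Ldhb (ENSMUSG00000030246, chromosome 6) had 6134, 5384, 5592, 5078 and 5847 reads in RC NoDS and 6031, 6034, 5540, 6030 and 5937 in HFD NoDS. It ranged from 5365 to 6198 reads in RC → HFD with a median of 5823, and had 6403, 5561, 6465, 5606 and 5334 in HFD → RC. The groups overlapped, and the log2 fold change of HFD NoDS minus RC NoDS was 0.10 (95% interval −0.04 to 0.23). Ldha made up 34.4% ± 1.75 (SD, n = 21) of the reads per kilobase of the pair, 35.0% ± 1.27 (SD, n = 5) in RC NoDS and 35.3% ± 0.880 (SD, n = 5) in HFD NoDS. Before division by exon length the means over the 21 libraries were nearly equal, 5758 reads for Ldha and 5784 for Ldhb.

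The 5 other glycolysis members gave no unadjusted p under 0.05 in any comparison with edgeR. Gpi1, which turns glucose 6-phosphate into fructose 6-phosphate, ranged from 10039 to 11913 reads over the 21 libraries. Aldoa, which splits the 6-carbon sugar, ranged from 24555 to 31361 reads. Pfkfb3, which makes the activator of phosphofructokinase, ranged from 789 to 1514 reads. Pgk1 and Pgam1 encode the kinase and the mutase between Gapdh and enolase. Pgk1 ranged from 2105 to 2740 reads and Pgam1 from 1488 to 1984.

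**Figure D3:**
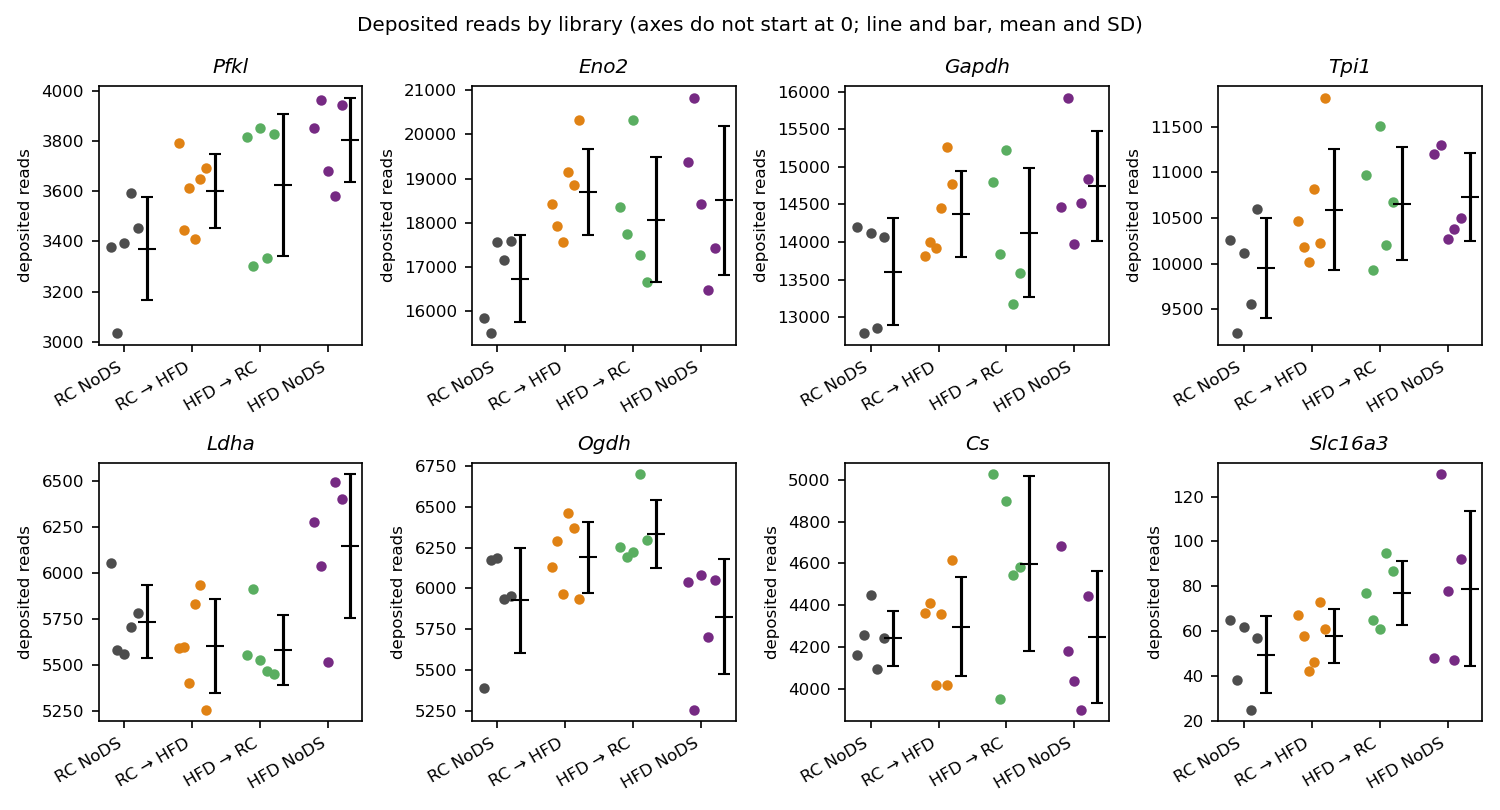
Deposited reads per library of Pfkl, Eno2, Gapdh, Tpi1, Ldha, Ogdh, Cs and Slc16a3 by diet group; the vertical axes do not start at 0. Points are libraries, and lines and bars are the group mean and SD; for Pfkl 4 of 5 HFD NoDS libraries lay above all RC NoDS libraries, and for Ogdh all 5 HFD → RC libraries lay above all HFD NoDS libraries.

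Citrate synthase, encoded by Cs, admits acetyl-CoA into the TCA cycle. Cs (ENSMUSG00000005683, chromosome 10) had 4164, 4256, 4449, 4095 and 4245 reads in RC NoDS and 4684, 4182, 4036, 3902 and 4445 in HFD NoDS. It ranged from 4017 to 4616 reads in RC → HFD with a median of 4362, and had 5026, 3950, 4897, 4544 and 4581 in HFD → RC. In HFD → RC 4 of 5 libraries lay above all RC NoDS libraries, and replicate 14 lay below all of them. The log2 fold change of HFD → RC minus RC NoDS was 0.14 (95% interval 0.00 to 0.28, edgeR p 0.0435, adjusted p 0.602), and that of HFD → RC minus HFD NoDS was 0.12 (95% interval −0.02 to 0.26, edgeR p 0.0833, adjusted p 0.675).

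Ogdh encodes the substrate-binding subunit of the 2-oxoglutarate dehydrogenase complex, a rate-setting step of the cycle. Ogdh (ENSMUSG00000020456, chromosome 11) had 5392, 6173, 6184, 5934 and 5955 reads in RC NoDS and 6040, 5258, 6080, 5702 and 6050 in HFD NoDS. It ranged from 5933 to 6461 reads in RC → HFD with a median of 6210, and had 6253, 6190, 6223, 6700 and 6299 in HFD → RC. All 5 HFD → RC libraries lay above every HFD NoDS library and every RC NoDS library, by a narrow margin over RC NoDS replicate 3. Ogdh was the 1 member of 39 whose groups did not overlap in HFD → RC against HFD NoDS, against 0.36% of all genes tested with HFD → RC higher. It was also the 1 member in HFD → RC against RC NoDS, against 0.54% of all genes tested with HFD → RC higher.

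The log2 fold change of Ogdh was 0.13 for HFD → RC minus HFD NoDS (95% interval 0.02 to 0.24, edgeR p 0.0272, adjusted p 0.575). It was 0.12 for HFD → RC minus RC NoDS (95% interval 0.01 to 0.23, edgeR p 0.0366, adjusted p 0.592) and −0.01 for HFD NoDS minus RC NoDS (95% interval −0.12 to 0.10). The interaction was −0.22 (95% interval −0.37 to −0.06, edgeR p 0.00812, adjusted p 0.342), the smallest unadjusted p of the members for that test. Switched mice of both kinds thus had higher Ogdh estimates than unswitched mice, and none of these tests passed.

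Fumarase, encoded by Fh1, and malate dehydrogenase of the mitochondrion, encoded by Mdh2, catalyse the last steps of the cycle. Fh1 (ENSMUSG00000026526, chromosome 1) had 1815, 1721, 1757, 1463 and 1456 reads in RC NoDS and 1476, 1522, 1594, 1493 and 1615 in HFD NoDS. It ranged from 1600 to 1731 reads in RC → HFD with a median of 1681 (1680.5), and had 1471, 1441, 1712, 1713 and 1408 in HFD → RC. RC NoDS and HFD → RC were each split into high and low libraries. HFD → RC minus RC → HFD gave Fh1 a log2 fold change of −0.11 (edgeR p 0.136, adjusted p 1), and that of HFD NoDS minus RC → HFD was −0.13 (edgeR p 0.0917, adjusted p 0.720). Kmo lies on the opposite strand of Fh1.

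Mdh2 (ENSMUSG00000019179, chromosome 5) had 5730, 5092, 5445, 5801 and 5653 reads in RC NoDS and 6027, 5852, 5479, 5372 and 5561 in HFD NoDS. It ranged from 5305 to 6186 reads in RC → HFD with a median of 5363, and had 6287, 5984, 6073, 5566 and 5544 in HFD → RC. HFD → RC held the highest library and overlapped each other group. Mdh2 had the smallest p of the members between the switched groups, a log2 fold change of 0.10 for HFD → RC minus RC → HFD (95% interval −0.02 to 0.22, edgeR p 0.102, adjusted p 0.987).

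The 13 other members of pyruvate entry and the TCA cycle had no unadjusted p under 0.05 with edgeR in any comparison. Pdha1, Pdhb, Dlat and Dld encode the subunits of pyruvate dehydrogenase. Pdha1 ranged from 2437 to 3241 reads over the 21 libraries, and Pdhb from 1345 to 1947. Dlat ranged from 1309 to 1746 reads and Dld from 827 to 1608. Idh3a, Idh3b and Idh3g encode the NAD-dependent isocitrate dehydrogenase, and Idh2 encodes the NADP-dependent mitochondrial form. Idh3a ranged from 2032 to 3377 reads, Idh3b from 3042 to 4121, Idh3g from 2014 to 2829 and Idh2 from 1124 to 1654. Idh3a had a log2 fold change of −0.21 for HFD NoDS minus RC NoDS (edgeR p 0.0535).

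Dlst, a second subunit gene of the 2-oxoglutarate dehydrogenase complex, ranged from 1628 to 2127 reads. Suclg1 and Sucla2 encode the subunits of succinyl-CoA synthetase, and ranged from 1898 to 2561 and from 1446 to 2823 reads. Sucla2 had a log2 fold change of −0.26 for HFD NoDS minus RC NoDS (edgeR p 0.0596). Mdh1, the cytosolic malate dehydrogenase gene, ranged from 8997 to 12408 reads. Pcx encodes pyruvate carboxylase, an enzyme of glia that refills the cycle, and ranged from 1565 to 2228 reads.

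For the diet eaten at the end, 15 of 17 glycolysis members had a higher estimate with the high-fat diet (median log2 fold change 0.06), against 5 of 17 TCA cycle members (median −0.03) and 2 of 5 transporters (median −0.03), with −0.00 over all genes. The smallest p values were those of Eno2 (log2 fold change 0.11, edgeR p 0.0298, adjusted p 0.892), Gapdh (0.08, edgeR p 0.0463, adjusted p 0.892) and Pfkl (0.09, edgeR p 0.0491, adjusted p 0.892). With the 3 libraries of lowest complexity left out, 10 of 17 glycolysis members were higher for this effect, with a median of 0.01. In that fit 1 member and 542 of all tested genes were at an unadjusted p under 0.05. With all libraries, 376 of all genes were higher and 290 lower at that level. The transport median for this effect, with each library left out, ranged from −0.058 (without RC NoDS replicate 1) to 0.00052 (without RC → HFD replicate 11). Over the same fits the glycolysis median ranged from 0.036 to 0.066 and the TCA cycle median from −0.046 to −0.013. For the interaction, 15 of 17 glycolysis members (median −0.06), 14 of 17 TCA cycle members (median −0.07) and 3 of 5 transporters (median −0.17) had a lower estimate. Of all 12768 genes, 6466 had a lower estimate, with a median of −0.00. These medians, with each library left out, stayed below 0 and ranged from −0.09 to −0.03 for glycolysis, from −0.09 to −0.02 for the TCA cycle, and from −0.22 (without HFD NoDS replicate 20) to −0.05 (without RC NoDS replicate 5) for the transporters.

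The number of members at an unadjusted p under 0.05 depended on single libraries and on how complexity was treated. For HFD NoDS minus RC NoDS the 7 became 1 without RC NoDS replicate 2, 1 without HFD NoDS replicate 20, 3 without HFD NoDS replicate 19 and 4 without RC NoDS replicate 5. The 7 became 1 with complexity as a covariate, with 14 of 17 glycolysis members higher (median 0.07). The 7 also became 1 with the 3 libraries of lowest complexity left out, with 13 of 17 glycolysis members higher (median 0.05). With any single library left out, between 13 and 17 glycolysis members were higher. The number of all tested genes at an unadjusted p under 0.05 moved as well: it was 946 in the fit with all libraries, 336 with complexity as a covariate, 528 without RC NoDS replicate 2, 485 without HFD NoDS replicate 20 and 608 with the 3 libraries of lowest complexity left out. It stayed closer to 946 without HFD NoDS replicate 19 (866 genes) and without RC NoDS replicate 5 (1001 genes). Without RC NoDS replicate 6 the 7 members became 9, and the number of all tested genes was 1457.

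For HFD → RC minus RC NoDS the 5 became 1 without RC NoDS replicate 2 or HFD → RC replicate 15 (815 and 841 of all genes). They became 2 without RC NoDS replicate 1, RC → HFD replicate 7 or HFD → RC replicate 13 (696, 959 and 950 of all genes). They became 0 without TMM factors (1022 of all genes) and 2 with those 2 groups alone (1072 of all genes). With complexity as a covariate 2 members were at an unadjusted p under 0.05 there and 13 of 17 glycolysis members were higher (median 0.03), and with the 3 libraries of lowest complexity left out the numbers were 8 and 15 of 17 (median 0.10). Of all genes tested, 1034 were at an unadjusted p under 0.05 there in the fit with all libraries, 794 with the covariate and 1318 with those 3 libraries left out. For the diet eaten at the end the 3 became 0 without RC NoDS replicate 2, RC → HFD replicate 12, HFD → RC replicate 16 or HFD NoDS replicate 19, where all genes went from 666 to 445, 573, 614 and 600. They became 1 without RC NoDS replicate 1, HFD → RC replicate 14 or HFD → RC replicate 17 (468, 741 and 629 of all genes). For HFD → RC minus HFD NoDS the 2 became 0 without HFD NoDS replicate 23, where all genes went from 1013 to 945. They became 1 without HFD → RC replicate 16, HFD → RC replicate 17 or HFD NoDS replicate 24 (993, 984 and 1084 of all genes), and 3 without HFD → RC replicate 14 or HFD NoDS replicate 19 (1130 and 1089).

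Some markers of several cell types differed between the 4 groups at an unadjusted p under 0.05 (edgeR), and most of these were not called. Endothelial, pericyte and ependymal markers had 0 at that level over the 4 groups. All 6 oligodendrocyte markers were higher at an unadjusted p under 0.05 in HFD NoDS than in RC NoDS (edgeR, median log2 fold change 0.57), in HFD → RC than in RC NoDS (median 0.82) and in HFD → RC than in RC → HFD (median 0.66). Their summed reads were 37068, 42911, 53351, 37898 and 55474 in RC NoDS and 57318, 97320, 52067, 94418 and 44761 in HFD NoDS. The sums were 102004, 136435, 78563, 45380 and 63087 in HFD → RC, and 59688, 49568, 47909, 49769, 43387 and 63257 in RC → HFD. Over the 4 groups all 6 were at an unadjusted p under 0.05 and 1, Mobp, was called (edgeR, adjusted p 0.125). Mbp was the most abundant marker, and none of the 6 had 0 reads in any library. RC NoDS replicate 6, RC → HFD replicate 12 and HFD NoDS replicate 20 had the highest glycolysis share and oligodendrocyte sum of their groups. In HFD → RC that share was highest in replicate 15. HFD → RC replicate 14, with the highest oligodendrocyte sum of all, had a glycolysis share of 0.930%. For the neuron marker sums given below, RC → HFD replicate 12, HFD → RC replicate 15 and HFD NoDS replicate 20 were highest in their groups. In RC NoDS replicate 3 had the highest neuron sum. How the glycolysis share moves with either sum was not tested.

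Of 7 neuron markers, 7 were higher in RC → HFD than in RC NoDS, 5 of them at an unadjusted p under 0.05 (edgeR, median log2 fold change 0.14). In HFD → RC against RC NoDS 7 of 7 were higher (median 0.14), and in HFD NoDS against RC NoDS 6 of 7 (median 0.06). Their summed reads were 49567, 48792, 49787, 46392 and 45957 in RC NoDS and 51367, 53983, 51216, 46438 and 49787 in HFD NoDS. The sums were 53346, 48435, 57200, 51809 and 51134 in HFD → RC, and 51710, 52718, 49850, 51454, 49915 and 58051 in RC → HFD. Every RC → HFD library lay above every RC NoDS library. Syp was the most abundant neuron marker, and none of the 7 had 0 reads in any library.

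The summed reads of 5 blood markers were 3481, 4547, 4314, 3724 and 3348 in RC NoDS and 1578, 4340, 1550, 3174 and 2052 in HFD NoDS. They were 6760, 2361, 2664, 676 and 3537 in HFD → RC, and 1817, 2122, 2118, 1057, 1917 and 1244 in RC → HFD. Every RC → HFD library lay below every RC NoDS library, and all 5 blood markers were at an unadjusted p under 0.05 over the 4 groups (edgeR), with 0 called. Hbb-b1 was the most abundant, and none of the 5 had 0 reads in any library.

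The summed reads of 4 tanycyte markers were 5894, 5095, 4468, 6536 and 6801 in RC NoDS and 5641, 4840, 6346, 6931 and 6005 in HFD NoDS. They were 4170, 5632, 3220, 4049 and 5115 in HFD → RC, and 3964, 3229, 5090, 5651, 4702 and 2743 in RC → HFD. Both switched groups had lower means than both unswitched groups, with overlapping libraries, and 3 of 4 tanycyte markers were at an unadjusted p under 0.05 over the 4 groups (edgeR), with 0 called. Ogdh estimates were higher in the switched groups, and so were the means of the summed neuron markers. Those means were 52283 in RC → HFD and 52385 in HFD → RC, against 48099 in RC NoDS and 50558 in HFD NoDS. A relation of Ogdh to the markers of any cell type was not tested. Col23a1 was the most abundant tanycyte marker, and none of the 4 had 0 reads in any library.

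The summed reads of 6 microglia markers were 3807, 3999, 4158, 4021 and 4574 in RC NoDS and 4439, 4784, 4579, 5412 and 4360 in HFD NoDS. They were 4071, 4952, 4321, 4116 and 4793 in HFD → RC, and 4221, 3707, 4248, 4046, 4067 and 3976 in RC → HFD. HFD NoDS had the highest mean, and 2 of 6 microglia markers were at an unadjusted p under 0.05 over the 4 groups (edgeR), with 0 called. Csf1r was the most abundant, and none of the 6 had 0 reads in any library.

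The summed reads of 7 astrocyte markers were 36799, 40455, 41769, 37354 and 37380 in RC NoDS and 36726, 41378, 39253, 42119 and 35703 in HFD NoDS. They were 40746, 40853, 40480, 39802 and 40203 in HFD → RC, and 40727, 41616, 40533, 36900, 36913 and 36221 in RC → HFD. The groups overlapped in the sum, while over the 4 groups 2 of 7 markers, Gfap and Slc1a2, were at an unadjusted p under 0.05 and Gfap was called (edgeR, adjusted p 0.125). Slc1a2 was the most abundant, and none of the 7 had 0 reads in any library. The part of these cell types in the members' fold changes was not tested.

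Across the 21 libraries, 9 pairs of a member and the summed markers of a cell type known for expressing it were related, with the group means removed. Eno2 and the neuron markers gave the 1 relation that passed at an adjusted p under 0.05 by Pearson's r (r 0.72, permutation p 0.00141, adjusted p 0.0127). Spearman's rho for that pair was 0.60 (permutation p 0.0110, adjusted p 0.0993), and r was 0.56 without the 2 libraries farthest from the median of the marker sum. That call was lost with 3 of the 21 libraries left out in turn and under both other ways of computing the relation. The adjusted permutation p of r was 0.0941 without RC → HFD replicate 12 (r 0.68), 0.0872 without HFD → RC replicate 15 (r 0.64) and 0.0570 without HFD NoDS replicate 20 (r 0.65). It was 0.0600 with log2(count + 1) (r 0.63) and 0.0504 with the mean of the markers' log2 values (r 0.64). The other 8 pairs had adjusted permutation p values of 0.272 or more for Pearson's r. Among them, Slc16a7 and the neuron markers had r −0.49 (rho −0.28), Slc2a3 and the neuron markers 0.34 (rho 0.38), Hk1 and the neuron markers 0.18 (rho 0.15). Without RC → HFD replicate 12 r was −0.14 for Slc16a7 and 0.11 for Slc2a3, and without HFD NoDS replicate 20 it was 0.58 for Slc2a3. With endothelial markers r was 0.16 for Slc2a1 (rho 0.14) and 0.09 for Slc16a1 (rho 0.06). With astrocyte markers r was 0.07 for Pcx (rho 0.06), −0.05 for Ldhb (rho −0.09) and −0.17 for Eno1 (rho −0.14). Without the 2 libraries farthest from the median of the marker sum, r turned its sign for Slc2a3 (−0.03), Slc2a1 (−0.04) and Pcx (−0.05). It was then 0.23 for Slc16a1, 0.13 for Hk1, −0.08 for Ldhb, −0.14 for Slc16a7 and −0.14 for Eno1. With the mean of the markers' log2 values instead of their sum, r was 0.33 for Pcx, 0.21 for Ldhb and 0.15 for Eno1. The labels give no batch within which these relations could be recomputed.

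**Figure D4:**
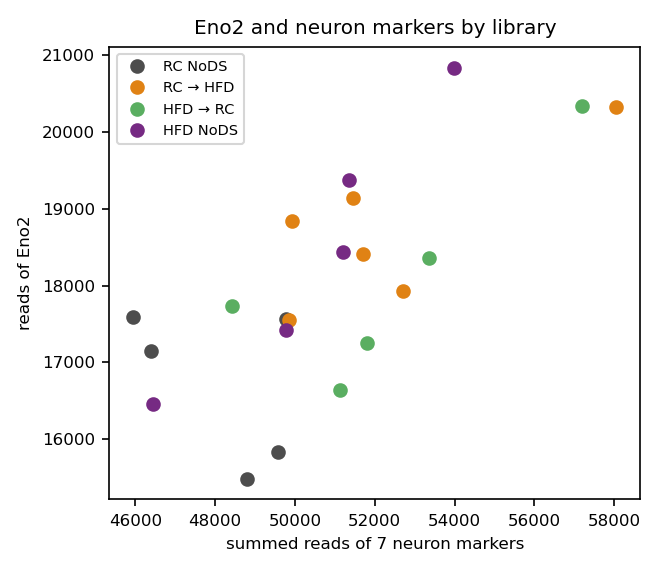
Deposited reads of Eno2 against the summed reads of 7 neuron markers, 1 point per library, coloured by diet group. Libraries with higher neuron marker sums had more Eno2 reads, with r 0.72 on log2 normalized values after removal of group means.

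A wider list of 123 other genes of these pathways (other isoforms, regulators, shuttles, the pentose phosphate pathway, glycogen and energy sensors) had 120 genes in the table and 99 tested. edgeR called 0 of the 99 in each of the 9 comparisons. At an unadjusted p under 0.05, 2 were higher and 2 lower in HFD NoDS than in RC NoDS, and 3 were higher and 1 lower in HFD → RC than in RC → HFD. RC → HFD minus RC NoDS gave 3 higher and 3 lower, HFD → RC minus HFD NoDS gave 2 and 1, HFD → RC minus RC NoDS gave 2 and 2, and HFD NoDS minus RC → HFD gave 5 and 4. The diet eaten at the end gave 0 higher and 1 lower, the interaction 5 and 4, and the test over all 4 groups 4. In both directions together these were 4.04%, 4.04%, 6.06%, 3.03%, 4.04%, 9.09%, 1.01%, 9.09% and 4.04% of the 99 genes, in the order given. All genes tested gave 7.41%, 5.35%, 6.51%, 7.93%, 8.10%, 7.49%, 5.22%, 8.84% and 7.97% in the same order, so the 99 genes lay below the background in 7 comparisons and just above it in HFD NoDS minus RC → HFD and the interaction.

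Aldoc, the aldolase gene of astrocytes, ranged from 16879 to 20024 reads in RC NoDS, from 18890 to 20396 in RC → HFD, from 18762 to 22620 in HFD → RC and from 18051 to 23061 in HFD NoDS. Its log2 fold change was 0.15 for HFD NoDS minus RC NoDS (edgeR p 0.0284, adjusted p 0.657) and 0.22 for HFD → RC minus RC NoDS (edgeR p 0.00270, adjusted p 0.247). Pygl, a glycogen phosphorylase gene, ranged from 291 to 400 reads in RC NoDS, from 222 to 290 in RC → HFD, from 305 to 567 in HFD → RC and from 200 to 365 in HFD NoDS. The log2 fold change of Pygl was 0.60 for HFD → RC minus RC → HFD (95% interval 0.28 to 0.92, edgeR p 0.000623, adjusted p 0.633). It was −0.37 for RC → HFD minus RC NoDS (edgeR p 0.0261, adjusted p 0.701) and −0.35 for the diet eaten at the end (edgeR p 0.00463, adjusted p 0.745).

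Slc16a6, a further monocarboxylate transporter gene, had 19 to 101 reads in RC → HFD and 114 to 204 in HFD NoDS, and its log2 fold change was 0.98 for HFD NoDS minus RC → HFD (95% interval 0.38 to 1.57, edgeR p 0.00221, adjusted p 0.477). Pgam5, a mitochondrial phosphatase gene, had an interaction of −0.56 (edgeR p 0.00252, adjusted p 0.259), with 0.31 for RC → HFD minus RC NoDS and −0.33 for HFD NoDS minus RC → HFD. Glud1, which feeds glutamate carbon into the cycle, had 0.15 for HFD → RC minus HFD NoDS and an interaction of −0.23 (edgeR p 0.00987, adjusted p 0.360). The log2 fold change of Pdp1, a phosphatase gene that activates pyruvate dehydrogenase, was −0.34 for HFD NoDS minus RC NoDS (edgeR p 0.0262). Prkab2, a subunit gene of AMP-activated kinase, had −0.37 for HFD → RC minus RC → HFD (edgeR p 0.0144), and Eno3, the muscle enolase gene, had −0.59 for HFD → RC minus HFD NoDS (edgeR p 0.0123). Adpgk, a glucokinase gene that uses ADP, had −0.19 for the diet eaten at the end (edgeR p 0.0586). None of these genes passed.

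The intervals bound the size of a difference that these libraries allow. For HFD NoDS minus RC NoDS the 95% interval (edgeR) lay wholly within a 1.5-fold change in either direction for 36 of 39 members (92.3%), against 73.0% of all genes tested, and the 3 members with wider intervals were Slc16a3, Slc16a7 and Hk2. For HFD → RC minus RC → HFD it did for 37 of 39 members (94.9%), against 76.9% of all genes tested, and the 2 with wider intervals were Slc16a3 and Slc16a7. The members and all genes were not matched for read level here.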

How the data were processed

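RNA of VH punches was sequenced from 21 libraries (100 bp single-end reads). The authors aligned the reads with STAR 2.5.1b to the mouse genome, used Picard 2.7.1, removed ribosomal and mitochondrial reads, resampled all libraries to near-equal depth and deposited a table of read counts per gene. From these counts, genes averaging at least 50 reads (12768 of 21654) were fitted with edgeR 4.0.16 (TMM factors, quasi-likelihood F-test, a mean per group, all 21 libraries) in R 4.3.3. P values were adjusted by Benjamini-Hochberg over the 12768 genes, and a gene was called at an adjusted p under 0.15. Levels, sums, exact tests and permutations (100000) used Python 3.11.15 with numpy 2.4.6, pandas 2.3.3 and scipy 1.17.1, and plots used matplotlib 3.10.9. Exon lengths and positions came from the GENCODE annotation of build NCBIM37.

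The members and lists were chosen with earlier results of these data known. Named members were those called in any comparison (none with edgeR), the 3 with the smallest p in each directional comparison, and 6 isoform sets (Slc2a1 and Slc2a3, Slc16a1 and Slc16a7, Hk1 and Hk2, Pfkl, Pfkm and Pfkp, Eno1 and Eno2, Ldha and Ldhb). Named other pathway genes were the 2 with the smallest p per comparison, of which 1 is not used here. Alternatives were DESeq2 1.42.0, limma 3.58.1 with voom, no TMM factors, genes averaging at least 5 reads, every gene with reads, robust dispersion, complexity as a covariate, reads summed by symbol, the 2 groups compared alone, and each library left out. Leaving out together the library with the most genes at 0 in each of RC → HFD, HFD → RC and HFD NoDS was added after the data had been seen. Marker relations were repeated with log2(count + 1) and with the mean of the markers' log2 values.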

Additional observations from a re-analysis of the deposited data

Results flagged for a closer look

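A library was noted when it lay apart from the rest of its group, that is when its gap to the nearest library exceeded Dixon's 95% critical share of the group's range. Chance gives about 1 in 20 groups, and 11 of 156 groups of member reads and 17 of 228 groups in all were noted. Among members these were Hk1 in HFD → RC replicate 13 (7757 reads, highest), Pfkp in RC NoDS replicate 1 (3604 reads, lowest), Pfkfb3 in HFD NoDS replicate 20 (1514 reads, highest) and Pgam1 in HFD → RC replicate 17 (1488 reads, lowest). Ldha (5915 reads) and Dlat (1746 reads) were highest in HFD → RC replicate 14, Ldhb was lowest in HFD NoDS replicate 21 (5540 reads), and Ogdh was highest in HFD → RC replicate 16 (6700 reads).

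RC → HFD replicate 12 was noted most often. It was the highest of its group for Pkm2 (28280 reads), Mdh2 (6186 reads), Pcx (2149 reads), the share of reads on all 39 members (1.39%) and the summed neuron markers (58051 reads), and the lowest for the summed choroid plexus markers (1029 reads). The remaining values were the TCA cycle share in HFD NoDS replicate 24 (0.335%, highest), the summed pericyte markers in HFD → RC replicate 17 (1614 reads, highest) and the summed pituitary genes in HFD → RC replicate 13 (2655 reads, highest).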

How the results depend on the processing

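The log2 fold changes of the 11 members named for a small p, each in the comparisons that name it, kept their sign and stayed uncalled in 233 values from other fits and in all 504 values with a library left out. The exception among the other fits was Eno2 in RC → HFD minus RC NoDS, with the same sign, so DESeq2 called 1 member there where edgeR called 0. The 11 members were picked for a small p in these same libraries, so a kept sign is no independent support. No fit moved the median of all genes by over 0.1 on the log2 scale.

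Medians of the 5 transporters moved most. For HFD → RC minus RC NoDS the median became 0.15 with complexity as a covariate and 0.18 with the 3 libraries of lowest complexity left out, and for HFD → RC minus HFD NoDS it became 0.19 with those 3 left out. With each library left out it ranged from −0.22 to −0.050 for the interaction, from 0.067 to 0.21 for HFD → RC minus RC → HFD, from −0.0071 to 0.18 for HFD → RC minus RC NoDS, and from 0.0058 to 0.17 for HFD → RC minus HFD NoDS.

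With each library left out, the difference in complexity (percentage points) ranged from 8.89 to 15.2 for HFD NoDS minus RC NoDS, from 9.42 to 15.97 for HFD → RC minus RC NoDS and from −3.63 to 4.37 for HFD → RC minus HFD NoDS. The r of Eno2 and neuron markers was 0.63 with log2(count + 1) (adjusted permutation p 0.0600) and 0.64 with the mean of marker log2 values (adjusted permutation p 0.0504), and 0.64 to 0.78 with a library left out. The mean of marker log2 values reversed the sign for Ldhb (0.21) and Eno1 (0.15) with astrocyte markers, and moved Pcx to 0.33 and Slc2a1 to 0.03. With log2(count + 1) Hk1 was at 0.03. With a library left out, r ranged from −0.067 to 0.23 for Pcx, from −0.12 to 0.055 for Ldhb, from −0.089 to 0.26 for Slc16a1, from −0.58 to −0.14 for Slc16a7, from 0.11 to 0.58 for Slc2a3, from 0.03 to 0.26 for Slc2a1, from 0.05 to 0.27 for Hk1 and from −0.30 to −0.06 for Eno1.

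The number of members at an unadjusted p under 0.05 with each library left out ranged from 1 to 9 for HFD NoDS minus RC NoDS, from 0 to 2 for HFD → RC minus RC → HFD, from 1 to 3 for RC → HFD minus RC NoDS, from 0 to 3 for HFD → RC minus HFD NoDS, from 1 to 7 for HFD → RC minus RC NoDS, from 0 to 2 for HFD NoDS minus RC → HFD, from 0 to 4 for the diet eaten at the end, from 1 to 3 for the interaction and from 0 to 3 for the test over all 4 groups. All tested genes at that level are given for the same fits and order, without the test over all 4 groups. They ranged from 485 to 1457, 516 to 940, 527 to 989 and 922 to 1130. The next ranges were 696 to 1429, 715 to 1123, 445 to 865 and 934 to 1340. Without TMM factors 6 members were at that level for HFD NoDS minus RC NoDS and 0 for HFD → RC minus RC NoDS (947 and 1022 of all genes). With the 2 groups alone the members numbered 3 and 2 (845 and 1072 of all genes). The cause of these shifts was not tested. No paired analysis was possible because the groups share no replicate numbers. Members with few reads, Slc16a3, Slc16a7 and Hk2, had 95% intervals reaching beyond a 1.5-fold change for HFD NoDS minus RC NoDS.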
